A study of Mus musculus with 4 samples.

Results

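CD8 T cells of the fraction labelled CD137 minus, in which the gene of the costimulatory receptor CD137 was deleted, were compared between a melanoma and the spleen of the same mice. The cells were chosen from the single-cell table by library and by marker: cells of the spleen CD137 minus and tumour CD137 minus libraries were kept when they had a value of Cd8a or Cd8b1, the genes of the 2 chains of the CD8 coreceptor. This kept 2444 of 2464 spleen cells and 1251 of 1262 tumour cells, together 3695 of the 6965 cells in the table. Cd8b1 had a value in 98.6% of the spleen cells and 98.5% of the tumour cells, and Cd8a in 80.6% and 87.7%, which the choice of cells partly sets.

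All cells came from bone marrow chimeras. C57BL/6 recipients were irradiated with 8 Gy and given 5000000 bone marrow cells from Cd4cre Cd137fl/fl ROSA26tomato and Cd137fl/fl ROSA26tomato donors, and their reconstitution was checked at 7 weeks. B16K1 cells, a derivative of the B16 mouse melanoma line, were then placed under the skin (1000000 cells), and spleen and tumour were taken on day 21. CD8 T cells were enriched with a CD8 isolation kit and sorted on the tomato protein. Cre under the Cd4 promoter deletes the loxP-flanked Cd137 gene in T cells of both the CD4 and the CD8 lineage, and the other donor carries the flanked gene without Cre. Both groups described here, spleen CD137 minus and tumour CD137 minus, therefore share the donor, the deletion, the host and the tumour. They differ in the tissue and also in the library. Effects of library preparation or tissue handling therefore cannot be told apart from those of the tissue. The CD137 plus fraction of the same tissues (469 and 2747 cells with a CD8 value) serves as a comparison at the end. The labels contradict each other on the tomato reporter: the sorting protocol calls tomato-positive cells CD137 minus, and the source names call them tomato negative. Groups were taken from the CD137 status, which both give.

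Cells of 7 mice were pooled into each library, and the table does not assign cells to mice. Each group is thus 1 library, so the differences below come without any test and describe these libraries, and intervals on shares of cells are exact Clopper-Pearson 95% intervals that cover counting error only. The table holds counts that had been corrected to about 1 depth per library. Over the chosen cells they summed to 9741480 in spleen and 5984460 in tumour, with a median of 3965.5 and 4836 per cell and 1325 and 1434 genes per cell. Mitochondrial genes took 1.98% and 2.12% of them, and ribosomal protein genes 36.8% and 31.7%. Of the chosen cells, 15 in spleen and 6 in tumour had a barcode that also occurs in another library.

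Markers of other cell types were low in both libraries but not equal. Of 9 melanoma genes in the table, 1 had a value in spleen and 7 in tumour, and they summed to 1.03 and 77.5 CPM. Dct, a pigment enzyme that T cells lack, stood at 18.9 CPM with a value in 2.00% of tumour cells and in none of spleen. Macrophage and monocyte genes summed to 243 CPM in spleen (6 of 10 genes) and 494 CPM in tumour (10 of 10), of which Lyz2 was at 0 and 1.34 CPM and C1qa at 0 and 2.51 CPM. B cell genes summed to 448 CPM in spleen (9 of 9) and 382 CPM in tumour (6 of 9), with Cd79a and Ms4a1 listed at 0 in tumour. The CD4 and regulatory T cell list summed to 26.5 CPM (5 of 6) and 278 CPM (6 of 6), of which Ctla4 alone gave 167 CPM in tumour, while Cd4 was at 0.616 and 4.18 CPM and Foxp3 at 0 and 1.67 CPM. NK cell genes summed to 92.7 CPM (6 of 6) and 284 CPM (5 of 6), with 138 CPM of the tumour sum from Klrk1, a receptor that CD8 T cells also carry. The other marker lists summed to at most 242 CPM in spleen and 329 CPM in tumour, the dendritic cell list (7 of 8 genes in each), and erythroid and neutrophil genes were listed at 0. Without the cells that had a value of Cd4, Cd79a, Lyz2, C1qa, Mlana or Pmel, 2429 spleen and 1197 tumour cells remained. None of the gene counts, list medians and 29 leading genes recomputed on them changed its call. This rule did not use Dct, nor Ptgds (a value in 0% of spleen and 2.64% of tumour cells), Tyrobp (1.80% and 3.04%) or Siglech (0.327% and 1.04%). Cells that had a value of these genes alone were thus kept.

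As background, CD8 T cells leave the thymus as naive cells that circulate between blood and lymphoid organs. The chemokine receptor CCR7 guides them into lymph nodes, the transcription factors TCF-1 and LEF-1 maintain them, and KLF2 keeps the receptors for exit switched on. Antigen drives them into effector cells that make granzymes, interferon gamma and chemokines. In tumours, where antigen persists, CD8 T cells acquire inhibitory receptors such as PD-1, TIM-3, LAG-3 and TIGIT together with transcription factors of the NR4A and TOX families, a state known as exhaustion. CD137 itself is a receptor of the TNF receptor family that is induced on activated CD8 T cells and carries a survival and growth signal.

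Tnfrsf9, which encodes CD137, lies in mm10 on chromosome 4 from 150914562 to 150946102. It stood at 2.36 CPM in spleen and 58.0 CPM in tumour of the CD137 minus libraries, where CPM is the corrected count per 1000000 of the library's total. In the CD137 plus libraries the levels were 16.0 and 423 CPM, so the minus library was the lower of the pair in both tissues. The share of CD137 minus cells with a Tnfrsf9 value was 0.859% in spleen and 16.0% (14.0 to 18.1) in tumour. Which exons Cre removes is not stated in the labels, and a tag at the 5' end can lie outside them, so the remaining value does not tell how complete the deletion was.

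Across all genes the tumour library differed from the spleen library mostly by higher levels. Levels were compared as the log2 ratio of CPM with a pseudocount of 1 CPM, tumour minus spleen, which understates the change of low genes. A gene was measured when it reached 20 CPM and 5% of cells in 1 of the libraries and had a value in both, and it was called at a log2 ratio of at least 1 in size. Of 5417 measured genes, 497 (9.17%) were higher in tumour and 173 (3.19%) lower, and the median over all of them was 0.04. The tails differed in length: 72 genes were higher by 3 or more on the log2 scale and 0 lower by 3, and the ratios ran from -2.45 to 6.87. A further 17 genes reached 20 CPM and 5% of cells in tumour and were listed at 0 in spleen, and 0 genes had the reverse pattern. Over all cells of each library, the fewest cells with a value of any gene above 0 were 4 in spleen and 5 in tumour. Rarer genes thus appear as 0 in the table, a 0 is no measured absence, and no fold is given against it.

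**Figure D1:**
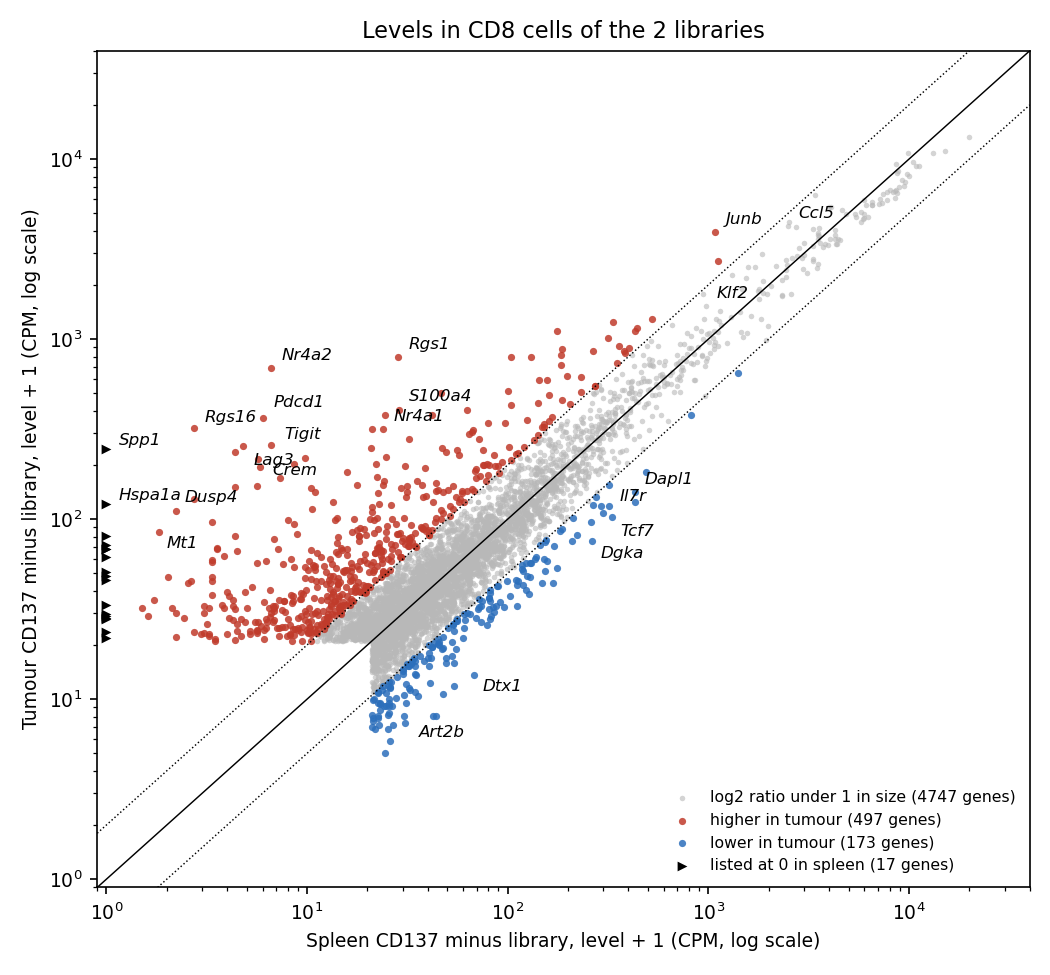
Levels in the spleen (x axis) and tumour (y axis) CD137 minus libraries, as CPM plus 1 on log axes, 1 point per measured gene; the solid line marks equal levels and the dotted lines a 2-fold difference, and triangles on the left edge are genes listed at 0 in spleen. The 497 genes higher in tumour spread further from the line than the 173 lower ones, with Rgs16, Nr4a2 and Pdcd1 furthest above it.

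Among the genes furthest above 0 were regulators of signalling and activation. Rgs16, which shortens signals of G protein-coupled receptors, stood at 1.75 CPM in spleen and 320.3 CPM in tumour (6.87), and had a value in 0.573% and 36.2% of cells. Rgs1 of the same family, linked to retention of T cells in tissue, stood at 27.4 and 794 CPM (4.81). Rgs16 was thus close to absent from the spleen library, while Rgs1 had a low but clear level there. Dusp4, a phosphatase that switches off MAP kinases, stood at 1.23 and 110.3 CPM (5.64). Bhlhe40, a transcription factor of activated and resident T cells, stood at 3.39 and 234 CPM (5.74). Crem, a cAMP-responsive transcription factor, stood at 4.82 and 195 CPM (5.07), and the metal-binding protein gene Mt1 at 0.821 and 84.2 CPM (5.55). The costimulatory receptor gene Tnfrsf4, which encodes OX40, stood at 2.36 and 95.6 CPM (4.84). The other named genes on this side were Nr4a2, Nr4a3, Pdcd1, Lag3, Tigit, Ccl3, Nrgn and Nrn1, which are described with their groups.

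The genes furthest below 0 had moderate spleen levels. Art2b, an ADP-ribosyltransferase of the T cell surface, stood at 42.8 CPM in spleen and 7.02 CPM in tumour (-2.45), and Dtx1, a regulator of Notch signalling, at 66.9 and 12.7 CPM (-2.31). Dgka, the diacylglycerol kinase that dampens T cell receptor signalling, stood at 262 and 74.2 CPM (-1.81). Slfn1, linked to T cell quiescence, stood at 167 and 43.4 CPM (-1.91), and Il16, which encodes a cytokine that is also made by resting T cells, at 147 and 42.9 CPM (-1.75). The remaining 9 named genes, Arhgap1, Gpr146, Slc35c1, Ifit1bl1, Chtf8, F2rl1, Cd79b, Nrros and Frmd8, had ratios from -2.19 (Arhgap1) to -1.75 (Frmd8). Cd79b is also in the B cell list given above. It had a value in 11.1% of spleen and 4.00% of tumour cells, against 0.368% and 0% for Cd79a. Without the cells that had a value of Cd4, Cd79a, Lyz2, C1qa, Mlana or Pmel, the Cd79b ratio was -1.61. Which cells gave the Cd79b difference was not tested.

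The 2 tissues held different mixes of cells, which a difference between whole libraries cannot separate from a difference within cells. Cells were therefore also split by markers, the same way in both tissues. Cells with a value of both Ccr7 and Lef1, here called lymphoid-marker cells, made up 60.0% (58.1 to 62.0) of spleen and 28.5% (26.0 to 31.0) of tumour cells. Cells with at least 2 of Ccl5, Nkg7 and Id2 and at most 1 of Ccr7 and Lef1, here called effector-marker cells, made up 24.5% (22.8 to 26.3) of spleen and 63.6% (60.9 to 66.3) of tumour cells. After thinning every cell to 3100 corrected counts the lymphoid-marker shares were 49.4% and 21.3%, and the effector-marker shares 28.8% and 63.1%. Median totals per cell were 4015 and 4809.5 in lymphoid-marker cells and 4090.0 and 4763 in effector-marker cells. The markers of both rules were settled after the data were seen. A stricter rule, which also excluded cells with a value of Ccl5, Nkg7, Pdcd1 or Cxcr6, left 13 tumour cells and 120 spleen cells, with 740 of 4353 measured genes (17%) higher and 556 (12.8%) lower. The 5 genes that define the split are no result within it. Spleen effector-marker cells (599) can hold cells that have 1 of Ccr7 and Lef1, so they are no pure effector population.

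Within lymphoid-marker cells 5029 genes were measured, 228 (4.53%) higher and 264 (5.25%) lower in tumour. The median over all measured genes was -0.22 in these cells, and their values stand against that shift. Within effector-marker cells 5623 genes were measured, 694 (12.3%) higher and 277 (4.93%) lower, with a median of 0.08. Of the 497 genes higher in the whole library, 247 (49.7%) were also past 1 in lymphoid-marker cells, 40 lay on the other side of 0, and 460 (92.6%) were past 1 in effector-marker cells. Of the 173 lower genes, 92 (53.2%) were past -1 in lymphoid-marker cells and 163 (94.2%) in effector-marker cells, with 0 on the other side in either. These counts share cells with the whole-library comparison and are not independent of it.

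**Figure D2:**
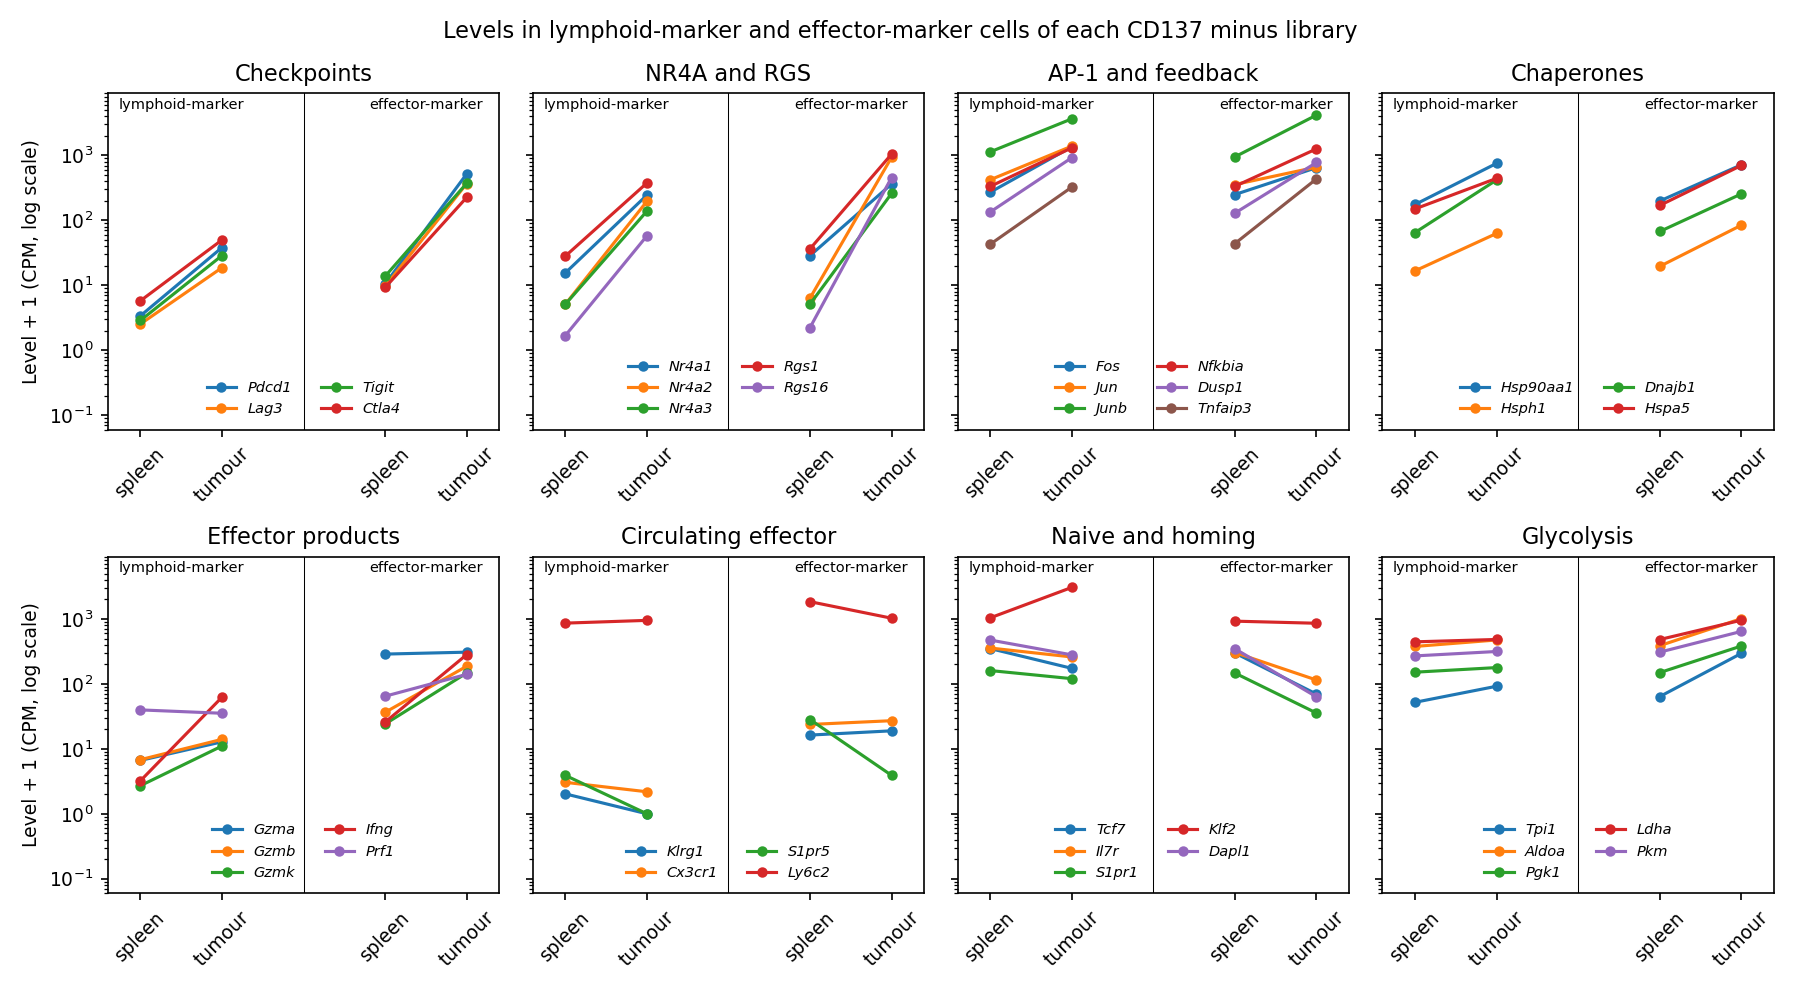
Levels as CPM plus 1 (log axis) of 38 genes in 8 groups, in lymphoid-marker cells (left of each panel) and effector-marker cells (right), with a line from the spleen to the tumour CD137 minus library for each gene; there is 1 library per tissue and no error bar, and a point at 1 is a gene listed at 0. The tumour end is the higher one for the NR4A, AP-1 and chaperone genes drawn here in both kinds of cell, and the lower one for S1pr5, Tcf7, Dapl1, Il7r and S1pr1 in effector-marker cells. The chaperone panel shows part of its list, without Hspa8 and Hspd1, which were called in neither direction over all cells.

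All 3 members of the NR4A family of transcription factors were higher in the tumour library. NR4A proteins are orphan nuclear receptors encoded by early genes that T cell receptor signals induce, and in tumours they are known to act with TOX in exhausted CD8 T cells. Since the 3 genes shared this direction, the sequence before each RefSeq start site is shown (GRCm38.p6), with the letters TGACG, or CGTCA on the other strand, in capitals. This is the half-site of the cAMP response element, which CREB and AP-1 family proteins bind.
Nr4a1 (chr15:101266596-101266845, plus strand): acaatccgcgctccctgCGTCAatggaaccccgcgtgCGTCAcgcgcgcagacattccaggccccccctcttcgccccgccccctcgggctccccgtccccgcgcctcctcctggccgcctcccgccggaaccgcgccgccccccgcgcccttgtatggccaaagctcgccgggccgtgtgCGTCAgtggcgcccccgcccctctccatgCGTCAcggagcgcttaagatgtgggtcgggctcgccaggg
Nr4a2 (chr2:57124004-57124253, minus strand): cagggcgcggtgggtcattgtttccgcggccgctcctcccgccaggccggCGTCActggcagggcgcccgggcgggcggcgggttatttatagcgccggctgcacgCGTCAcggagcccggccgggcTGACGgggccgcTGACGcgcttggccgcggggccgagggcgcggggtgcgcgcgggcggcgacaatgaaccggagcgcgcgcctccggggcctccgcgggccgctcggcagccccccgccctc
Nr4a3 (chr4:48045055-48045152, plus strand): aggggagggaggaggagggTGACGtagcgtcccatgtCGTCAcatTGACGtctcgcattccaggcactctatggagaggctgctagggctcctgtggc
Each stretch begins 250 bases before the start site, and that of Nr4a3 is cut to its first 98 bases, since a GENCODE exon covers the rest. The half-site occurs 4 times in the Nr4a1 stretch, 4 times in that of Nr4a2 and 3 times in that of Nr4a3. Of all 32851 RefSeq promoter windows, 17.8% hold it in the 250 bases and 5.22% in the 98 bases. Counted per gene, with a match in any of its windows, the share was 19.8% of all 27025 genes, 34.4% of 4325 measured genes, 35.0% of 371 higher in tumour and 24.6% of 130 lower. The motif was chosen after the values were seen, and a match describes letters, not binding.

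Nr4a2 stood at 5.65 CPM in spleen and 687 CPM in tumour (6.69), with a value in 1.80% (1.31 to 2.41) and 63.9% (61.1 to 66.5) of cells. Nr4a3 stood at 4.72 and 215 CPM (5.24), and Nr4a1 at 22.9 and 316 CPM (3.73), with values in 56.2% of tumour cells. The difference was present in both kinds of cell. In lymphoid-marker cells Nr4a2 was at 4.10 and 196 CPM (5.27), Nr4a3 at 4.10 and 138 CPM (4.77) and Nr4a1 at 14.5 and 244 CPM (3.98). In effector-marker cells Nr4a2 was at 5.37 and 937 CPM (7.20) and Nr4a1 at 27.7 and 363 CPM (3.67). Of the 16 transcription factors linked to exhaustion, 11 were measured, 9 were higher, 0 lower, and the median was 2.14. Tox, which sets up the exhausted state, stood at 30.1 and 132 CPM (2.10), Rbpj, the effector of Notch signals, at 10.3 and 63.5 CPM (2.52), and Ikzf2 (Helios) at 17.2 and 79.4 CPM (2.14). Id3, a factor of memory and precursor cells, was at 106 and 120.1 CPM (0.18) in the whole library. By kind of cell its ratio had opposite signs, with 81.8 and 223 CPM (1.43) in lymphoid-marker cells and 140.1 and 75.7 CPM (-0.88, under the limit) in effector-marker cells.

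The inhibitory receptor genes Pdcd1, Lag3, Tigit and Ctla4 were near the floor in spleen and had a value in 32.8% to 41.0% of tumour cells. Of 17 genes, 12 were measured, 9 were higher and 0 lower, with a median of 2.62 (1.64 with a pseudocount of 10 CPM), and Havcr2 was listed at 0 in spleen. Pdcd1, which encodes PD-1, stood at 5.03 CPM in spleen and 365 CPM in tumour (5.93), with a value in 1.31% (0.897 to 1.84) and 41.0% (38.3 to 43.8) of cells, or 0.982% and 36.1% after thinning. Lag3, which binds MHC class II, stood at 3.80 and 253 CPM (5.73). Tigit, whose protein competes for ligands of CD226, stood at 5.65 and 256 CPM (5.28), and Ctla4, whose protein competes with CD28, at 6.36 and 167 CPM (4.52). These 4 receptors had similar shares in tumour, from 32.8% for Ctla4 to 41.0% for Pdcd1. Havcr2 (TIM-3) reached 32.3 CPM and 9.35% (7.80 to 11.1) of tumour cells. The ectonucleotidase gene Entpd1 (CD39) was at 2.16 and 25.1 CPM (3.05). Not every inhibitory gene was higher: Cd96 was at 83.4 and 85.2 CPM (0.03), Cd160 at 43.5 and 87.2 CPM (0.99) and Vsir (VISTA) at 159 and 96.1 CPM (-0.72).

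The receptors were concentrated in the effector-marker cells of the tumour. Pdcd1 was at 2.39 CPM in spleen and 37.3 CPM in tumour lymphoid-marker cells, and at 9.51 and 521 CPM in effector-marker cells. Of the inhibitory list 3 of 7 measured genes were higher in lymphoid-marker cells (median -0.28) and 10 of 13 in effector-marker cells (median 2.67), with 0 lower in both. These medians cover different members, since the level filter was applied within each kind of cell. Lag3, at 1.54 CPM in spleen and 17.7 CPM in tumour lymphoid-marker cells (2.88), was under the filter there and is not in that median. Of the 451 tumour cells (36.1%) with at least 2 of Pdcd1, Havcr2, Lag3 and Tigit, 408 were effector-marker cells and 15 lymphoid-marker cells. In spleen 13 cells (0.532%) met this rule. Counting Ctla4 as well, 94.4% of spleen cells had a value of none of the 5 receptors and 4.79% of 1. In tumour 40.6% had none, 19.0% had 1, 10.2% had 2, 10.2% had 3, 15.7% had 4 and 4.16% had all 5.

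**Figure D3:**
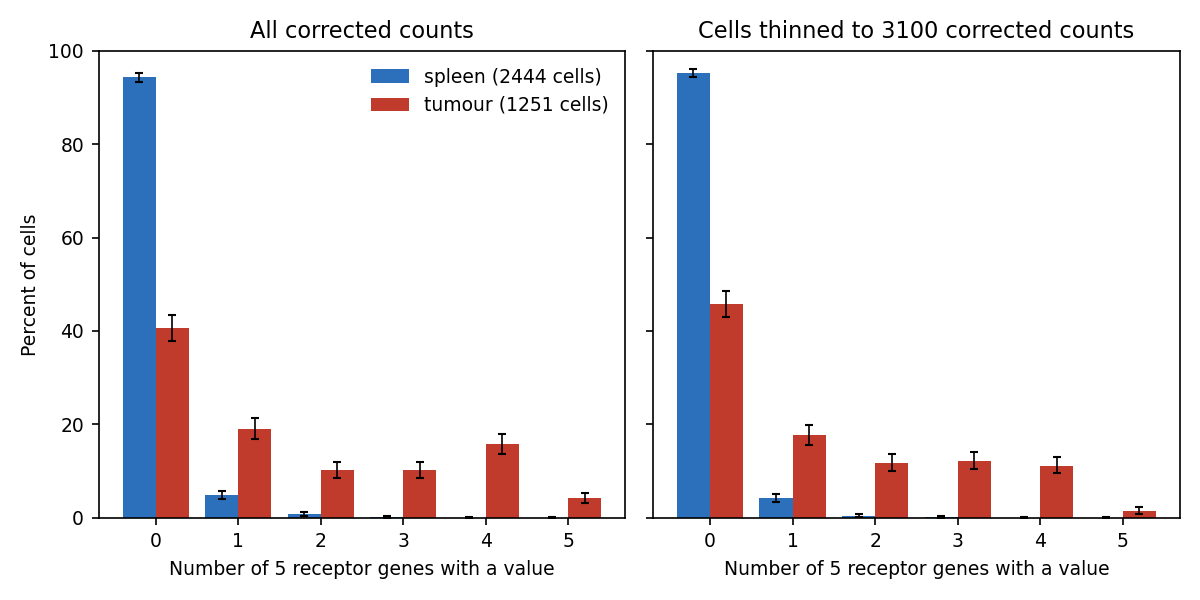
Percent of CD137 minus cells (y axis) by how many of Pdcd1, Havcr2, Lag3, Tigit and Ctla4 had a value (x axis), in spleen (2444 cells) and tumour (1251 cells), before (left) and after (right) thinning to 3100 corrected counts; bars on the columns are exact 95% intervals of counting error. Tumour cells spread over 0 to 5 receptors, with 15.7% at 4 before and 11.2% after thinning, while 94.4% of spleen cells before thinning have 0.

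Within the tumour, cells with a Pdcd1 value differed from cells without one in other genes. The 513 cells with Pdcd1 had a median total of 5048 and 1731 genes, and the 738 without it 4759 and 1329.5, so the first group was also richer in detected genes. Lag3 had a value in 67.8% (63.6 to 71.9) of cells with Pdcd1 and 11.7% (9.43 to 14.2) of cells without it, Tigit in 67.3% and 14.5%, and Ctla4 in 58.5% and 14.9%. Tox had a value in 56.3% and 16.3%, Rgs16 in 65.7% and 15.7%, Nrgn in 45.2% and 4.20%, and Ccr8 in 31.0% and 4.47%. Tnfrsf9 itself, the targeted gene, had a value in 33.5% (29.5 to 37.8) and 3.79% (2.54 to 5.44). Nr4a2 was more widespread, with 91.4% and 44.7%. The opposite order held for Il7r and Tcf7, genes of naive and memory cells, with Il7r in 18.3% and 44.2%, and Tcf7 in 15.4% (12.4 to 18.8) and 39.6% (36.0 to 43.2). Fos had a value in 54.4% and 77.6% and Hspa1a in 8.38% and 19.4%, so 2 early response and stress genes were also less frequent beside Pdcd1. Slamf6, a marker of precursor cells, had overlapping intervals, with 13.8% (10.97 to 17.1) and 16.4% (13.8 to 19.3). The intervals of Itgae (4.68% and 6.37%) and Klf4 (20.9% and 19.9%) overlapped too, and the cells of 1 library are not replicates.

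Many genes of naive cells and lymph node homing were lower in the tumour library. All 19 listed genes were measured, 9 were lower, 0 higher, and the median was -0.87. Lef1 stood at 489.7 and 181 CPM (-1.43), and Tcf7, which encodes TCF-1, at 331 and 101 CPM (-1.70). Dapl1 was at 428 and 139.7 CPM (-1.61), the IL-7 receptor gene Il7r at 319 and 154 CPM (-1.04), and S1pr1, the receptor for exit into blood, at 151 and 59.0 CPM (-1.34). Fewer tumour cells had a value of each: 77.8% and 38.0% for Lef1, 66.9% and 29.7% for Tcf7, 54.6% and 25.0% for Dapl1, 55.8% and 33.6% for Il7r and 42.4% and 17.7% for S1pr1. Within lymphoid-marker cells, without the 2 genes that define them, 1 of 17 was lower, 1 higher and the median was -0.30, against -0.22 for all genes. Tcf7 was the lower one (-1.01, under the limit once the median of -0.22 is subtracted), and Il7r (-0.46) and S1pr1 (-0.41) lay under the limit. Within effector-marker cells 11 of 16 were lower and 0 higher, with a median of -1.23.

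Ccr7 and Klf2 did not follow the other homing genes. Ccr7 was at 444 CPM in spleen and 567 CPM in tumour (0.35), although the share of cells with a value was 74.0% and 55.8%. Klf2 was at 977 and 1518 CPM (0.63), with a value in 92.6% and 70.5% of cells. Fewer tumour cells thus carried these transcripts and the level over all cells was not lower. In lymphoid-marker cells Klf2 was at 1039 CPM in spleen and 3058 CPM in tumour (1.56), the 1 higher gene of the list, and in effector-marker cells at 924 and 858 CPM (-0.11).

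Immediate early genes were higher in the tumour in both kinds of cell. These genes are switched on within minutes by receptor signals or stress, before new protein is made. Of 22 listed genes, 17 were measured, 16 were higher and 1 lower, with a median of 1.90. In lymphoid-marker cells 16 of 17 were higher and 0 lower (median 2.32), and in effector-marker cells 15 of 18 higher and 1 lower (median 2.06). Junb, an AP-1 subunit, was the most abundant, at 1084 CPM in spleen and 3921 CPM in tumour (1.85), and had a value in 90.3% and 98.6% of cells. Fos was at 266 and 858 CPM (1.69) and at 270.1 and 1357 CPM in lymphoid-marker cells (2.32). The AP-1 gene Fosl2 was at 9.44 and 147 CPM (3.83), the zinc finger factor Egr1 at 38.2 and 133 CPM (1.78), and the phosphatase genes Dusp1, Dusp2 and Dusp5 had ratios of 2.61, 2.24 and 3.10. Myc, the growth regulator, was the 1 lower gene, at 112 and 44.4 CPM (-1.31). Egr2 was at 5.34 and 5.35 CPM and Egr3 at 2.67 and 4.85 CPM, both under the level filter.

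A pair of feedback inhibitors was among the NF-kB pathway genes that were higher. Of 17 listed genes, 16 were measured, 5 were higher and 0 lower (median 0.68). Tnfaip3, which encodes the ubiquitin editor A20, was at 40.8 and 379 CPM (3.19), and Nfkbia, which encodes the inhibitor that retains NF-kB in the cytoplasm, at 335 and 1250.4 CPM (1.90). Rel was at 34.4 and 162 CPM (2.20), while Rela was at 73.7 and 49.5 CPM (-0.57). A glucocorticoid-linked list had 6 of 8 measured genes higher and 0 lower (median 1.31), among them Zfp36 at 428 and 1104 CPM (1.37) and Zfp36l2 at 159 and 486 CPM (1.61), which both shorten the life of cytokine mRNA. Its classic targets Tsc22d3 (GILZ), at 221 and 290.1 CPM (0.39), and Fkbp5, at 7.19 and 9.52 CPM, were not called.

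Heat shock chaperones were also higher in part. Of 15 genes, 11 were measured, 5 were higher and 0 lower (median 0.70, or 1.09 in thinned cells and 1.05 without a level filter), and Hspa1a and Hspa1b were listed at 0 in spleen. Hspa1a stood at 121 CPM in tumour, in 14.9% (12.9 to 17.0) of cells, and Hspa1b at 60.8 CPM. These genes are near-identical copies, so the division of reads between them is uncertain. Dnajb1, a partner of HSP70, was at 65.6 and 304 CPM (2.19), Hsp90aa1 at 183 and 719 CPM (1.97) and Hspa5, the chaperone of the endoplasmic reticulum, at 156 and 590.2 CPM (1.91). The constitutive chaperones were called in neither direction, with Hspa8 at 1576 and 2518 CPM (0.68) and Hspd1 at 116 and 189 CPM (0.70). In lymphoid-marker cells Dnajb1 was at 64.1 and 419 CPM (2.69) and Hspa1a reached 141 CPM in tumour, against 108 CPM in tumour effector-marker cells. Without the cells that had a value of Hspa1a, Hspa1b, Fosb or Atf3, which left 2232 of the spleen and 701 of the tumour cells, the counts were 587 higher and 199 lower genes, and the medians of these lists 1.94 (immediate early) and 0.68 (chaperones). Hspa1a, Hspa1b and Atf3 were listed at 0 in spleen, so only Fosb could remove spleen cells. The rule was thus not the same selection in the 2 tissues.

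Effector molecules were higher in the tumour library, and several were so within effector-marker cells too. Of 15 cytotoxic genes, 13 were measured, 9 were higher and 0 lower (median 1.31). Within effector-marker cells, without Nkg7, 7 of 12 were higher and 1 lower (median 1.23), and in lymphoid-marker cells 2 of 8 were higher and 0 lower (median 0.38). Granzyme genes Gzmb, at 12.4 and 124 CPM (3.22), and Gzmk, at 7.08 and 98.3 CPM (3.62), were past 1 in effector-marker cells, at 35.5 and 186 CPM (2.36) and 23.1 and 146 CPM (2.61). So were the death ligand gene Fasl (2.79) and the perforin gene Prf1 (1.12). Gzma did not share this pattern: it was at 74.7 and 198 CPM over all cells (1.39), and at 287 CPM in spleen and 307 CPM in tumour effector-marker cells (0.10). Gzmm was the lower one there, at 124 and 31.9 CPM (-1.92).

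Markers of circulating and memory effector cells were split. Over all cells, 8 of 16 measured genes of this list were higher and 0 lower (median 0.74). Within effector-marker cells, without Id2, 4 of 17 were higher and 2 lower, and the median was 0.10. S1pr5, a receptor that leads effector cells back into blood, was at 27.3 CPM in spleen and 2.90 CPM in tumour effector-marker cells (-2.86), and Fcgrt at 69.0 and 16.9 CPM (-1.97). Ly6c2 (-0.85), Cxcr3 (-0.90) and Eomes (-0.69) were under the limit, and Klrg1 (0.22) and Cx3cr1 (0.19) near level. The integrin genes Itgb1 (1.70) and Itga4 (1.00), the activation factor Klf6 (2.00) and the effector factor Zeb2 (1.79) were the 4 higher genes.

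Cytokines and chemokines were among the larger differences. Of 22 listed genes, 13 were measured, 8 were higher and 1, Il16, lower (median 1.75). Ifng, which encodes interferon gamma, was at 7.60 CPM in spleen and 202 CPM in tumour (4.56), in 2.17% and 27.6% of cells. It was higher in lymphoid-marker cells (2.22 and 61.5 CPM, 4.28) and in effector-marker cells (24.8 and 282 CPM, 3.46). Ccl3 was at 3.39 and 149.9 CPM (5.10), Ccl4 at 20.02 and 315 CPM (3.91) and Xcl1, which attracts cross-presenting dendritic cells, at 45.8 and 504 CPM (3.43). Tnfsf11 (RANKL) was at 0.719 and 34.4 CPM (4.37), and Ccl1 was listed at 0 in spleen and at 67.7 CPM in 5.20% of tumour cells. Interferon-stimulated genes were near level: of 17 measured, 1 was higher (Isg20, 1.69), 1 lower (Ifit1, -1.14), and the median was -0.13. Class I antigen presentation had 0 of 15 called and a median of -0.20.

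Residency and tissue-signal genes were split. Of 22 residency and adhesion genes, 15 were measured, 8 were higher and 0 lower (median 1.40, or 0.91 with a pseudocount of 10 CPM), and Ccr8 was listed at 0 in spleen. Cxcr6, the receptor for CXCL16, was at 48.3 and 234 CPM (2.25), Itga1 (CD49a) at 1.44 and 27.1 CPM (3.53) and Itgav at 12.7 and 97.6 CPM (2.84). Ccr8 reached 67.0 CPM and 15.3% (13.4 to 17.5) of tumour cells. Itgae, which encodes the CD103 chain that binds epithelial E-cadherin, was at 22.6 and 18.5 CPM (-0.27), in 7.61% (6.59 to 8.73) and 5.68% (4.46 to 7.11) of cells. By kind of cell the median of the residency list was smaller. In effector-marker cells 7 of 15 measured genes were higher and 2 lower (median 0.72), and in lymphoid-marker cells 6 of 13 higher and 1 lower (median 0.66). In the TGF-beta list 4 of 8 measured genes were higher and 0 lower (median 1.30). This median was 0.34 without a level filter, 0.84 with a pseudocount of 10 CPM and 2.36 with a filter of 50 CPM and 10% of cells. They were the feedback inhibitors Smad7, at 99.9 and 513 CPM (2.35), Skil (2.37) and Pmepa1 (2.20), and the corepressor Tgif1, at 19.8 and 248 CPM (3.58). The receptor gene Tgfbr2 (0.27) and the signal carriers Smad2 (-0.27) and Smad4 (-0.24) were not called.

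Several secreted and neuronal genes were at or near 0 in spleen and clearly detected in tumour. Spp1, which encodes osteopontin, was listed at 0 in spleen and stood at 245 CPM in tumour, in 14.0% (12.1 to 16.0) of cells. It was at 17.7 CPM in lymphoid-marker and 370.5 CPM in effector-marker tumour cells, and had a value in 26.7% of cells with Pdcd1 and 5.15% of cells without it. Spp1 is also made by macrophages, whose gene C1qa stood at 2.51 CPM in 1.12% of tumour cells. Penk, the precursor of enkephalins, was listed at 0 in spleen and at 70.9 CPM in tumour (6.95% of cells). Nrgn, a calmodulin-binding protein of neurons, was at 1.75 and 129 CPM (5.57), Nrn1 (neuritin) at 4.62 and 152 CPM (4.77) and Nrp1, a semaphorin receptor, at 2.87 and 61.5 CPM (4.01). Sema6d and Sema4c were listed at 0 in spleen, at 26.9 and 20.9 CPM in tumour. The cell cycle inhibitor Cdkn1a reached 79.4 CPM and 18.1% of tumour cells, also from 0 in spleen. The remaining genes listed at 0 in spleen were Atf3, Slc16a11, Ier5l, Dusp14, Igfbp7, Ell2 and Tubb6, at 22.7 (Tubb6) to 49.96 CPM (Atf3).

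Several glycolysis genes were higher in effector-marker cells and not called in lymphoid-marker cells. Over all cells 4 of 13 measured genes were higher and 0 lower (median 0.92). The fraction was 7 of 13 in effector-marker cells (median 1.03) and 0 of 12 in lymphoid-marker cells (median 0.13). The triose phosphate isomerase gene Tpi1 was at 62.8 and 294 CPM in effector-marker cells (2.21) and at 51.1 and 91.1 CPM in lymphoid-marker cells (0.82). Aldoa was at 387 and 1009.6 CPM (1.38) against 377 and 474 CPM (0.33). The lactate exporter gene Slc16a3 was at 0.513 and 31.2 CPM over all cells (4.41). Cholesterol synthesis had the same kind of split, with 5 of 8 genes higher and 0 lower in effector-marker cells (median 1.09) and 0 of 7 higher and 1 lower in lymphoid-marker cells (median -0.39). The difference between the kinds of cell was not tested. Oxidative phosphorylation had 0 of 22 genes called over all cells, with a median of 0.05 and ratios from -0.56 (Sdha) to 0.43 (Cox6c).

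Proliferation and survival genes were called in part. Of 24 cell cycle genes, 14 were measured, 6 were higher and 1 lower (median 0.76). Top2a was at 8.83 and 39.6 CPM (2.05), in 9.75% of tumour cells, and Mki67 was at 2.77 and 18.9 CPM, under the level filter. In effector-marker cells Top2a was at 18.2 and 50.9 CPM (1.44). The tubulin gene Tubb5 was the lower one, at 818 and 379 CPM (-1.11). By kind of cell, 10 of 19 measured cell cycle genes were higher and 1 lower in effector-marker cells (median 1.14). In lymphoid-marker cells 0 of 10 were higher and 0 lower (median -0.06), and this difference between the kinds of cell was not tested. Of the survival and apoptosis list, 4 of 17 measured genes were higher and 0 lower (median 0.37). They included Bcl2a1b, at 23.8 and 222 CPM (3.17), and Bcl2a1d, at 2.57 and 68.3 CPM (4.28), near-identical copies of an anti-apoptotic gene between which reads may be divided. Bcl2 was at 214 and 138 CPM (-0.63).

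Receptors for growth signals and calcium-binding proteins completed the differences. In the cytokine receptor list 7 of 18 measured genes were higher and 3 lower (median 0.65). Cish, a feedback inhibitor of STAT5 signals, was at 7.29 and 59.2 CPM (2.86) and Il21r at 68.5 and 188 CPM (1.45), while Il27ra (-1.61), Il6ra (-1.08) and Il7r were lower. Costimulatory receptors had 5 of 12 higher and 1 lower (median 0.48), with Icos at 23.1 and 162 CPM (2.76), Cd28 at 101 and 250.1 CPM (1.30) and Slamf6, a marker of precursor cells, lower at 109.6 and 45.1 CPM (-1.26). S100a4 was at 27.6 and 405 CPM (3.83) and the actin-capping gene Capg at 21.1 and 201 CPM (3.19), in a cytoskeleton and lectin list with 8 of 21 higher and 0 lower (median 0.83). Hypoxia and metallothionein genes had 3 of 6 higher and 1 lower (median 0.85), with the glucose transporter gene Slc2a1 at 19.7 and 40.9 CPM (1.02).

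The machinery of the T cell receptor was near level. Of 21 genes, 1 was higher (Cblb, a ubiquitin ligase that restrains signalling, 1.12), 1 lower (Dgka), and the median was -0.09. Cd3e was at 1092 and 1290.2 CPM (0.24) and the kinase gene Lck at 718 and 596 CPM (-0.27). Cytosolic ribosomal protein genes had 0 of 24 called and a median of -0.27 over all cells, 0.02 in lymphoid-marker and -0.37 in effector-marker cells. The housekeeping list had 1 of 14 higher (Pgk1, also a glycolysis gene) and a median of 0.06.

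**Figure D4:**
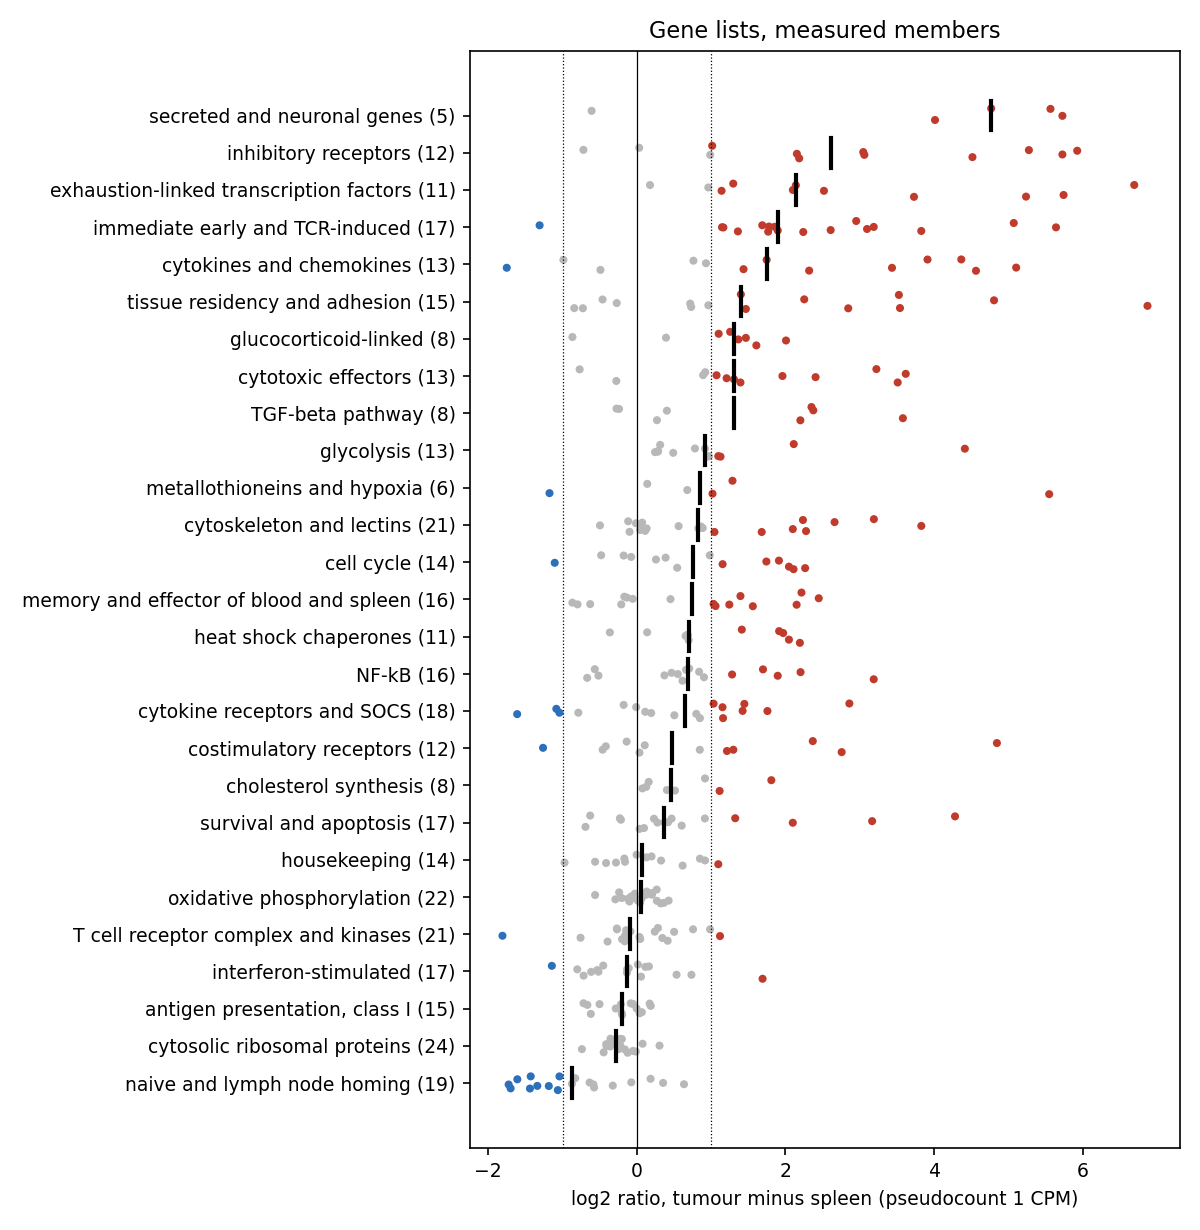
Log2 ratios of tumour to spleen (x axis) for the measured members of the 27 gene lists, 1 point per gene, with the number measured in brackets; red points are called higher, blue lower, grey neither, and the black bar is the median of the list. Medians run from -0.87 for naive and homing genes to 4.77 for secreted and neuronal genes, a list with 5 measured genes that include Lag3, also counted among inhibitory receptors (4.39 over the other 4), and oxidative phosphorylation lies within 1 on either side of 0.

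The same tissue comparison was made in the CD137 plus libraries, which share no library with the minus pair but come from the same mice. There 5733 genes were measured, 601 (10.5%) higher and 352 (6.14%) lower in tumour. Median totals per cell were 5337 in spleen and 3700 in tumour of the plus pair, against 3965.5 and 4836 in the minus pair. Of the 497 genes higher in CD137 minus cells, 478 had a value in both plus libraries, and 386 (80.8%) of these were past 1 in the plus pair, 83 on the same side under 1 and 9 on the other side. Of the 173 lower genes, 122 (70.5%) were past -1, 48 on the same side and 3 on the other. Dusp4, Nrgn, Mt1 and Nrn1, among the leading higher genes, were listed at 0 in the plus spleen library and could not be compared. Over the 5290 genes measured in both pairs, the ratios had a Pearson r of 0.87. This r is across genes, with no test, since genes are not independent replicates. Nr4a2 had a ratio of 6.69 in CD137 minus and 6.29 in CD137 plus cells, Pdcd1 5.93 and 5.59, and Tcf7 -1.70 and -1.98. Further apart were Lag3 (5.73 and 3.69), whose CD137 plus levels were 25.8 CPM in spleen and 346 CPM in tumour, Gzmk (3.62 and 1.84) and Gzma (1.39 and -0.43). With 1 library per fraction and tissue, these differences between the fractions were not tested. Of the 17 genes listed at 0 in spleen, 16 were also listed at 0 in the plus spleen library, the exception being Havcr2 at 4.50 CPM, and 17 had at least 20 CPM in the plus tumour library.

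**Figure D5:**
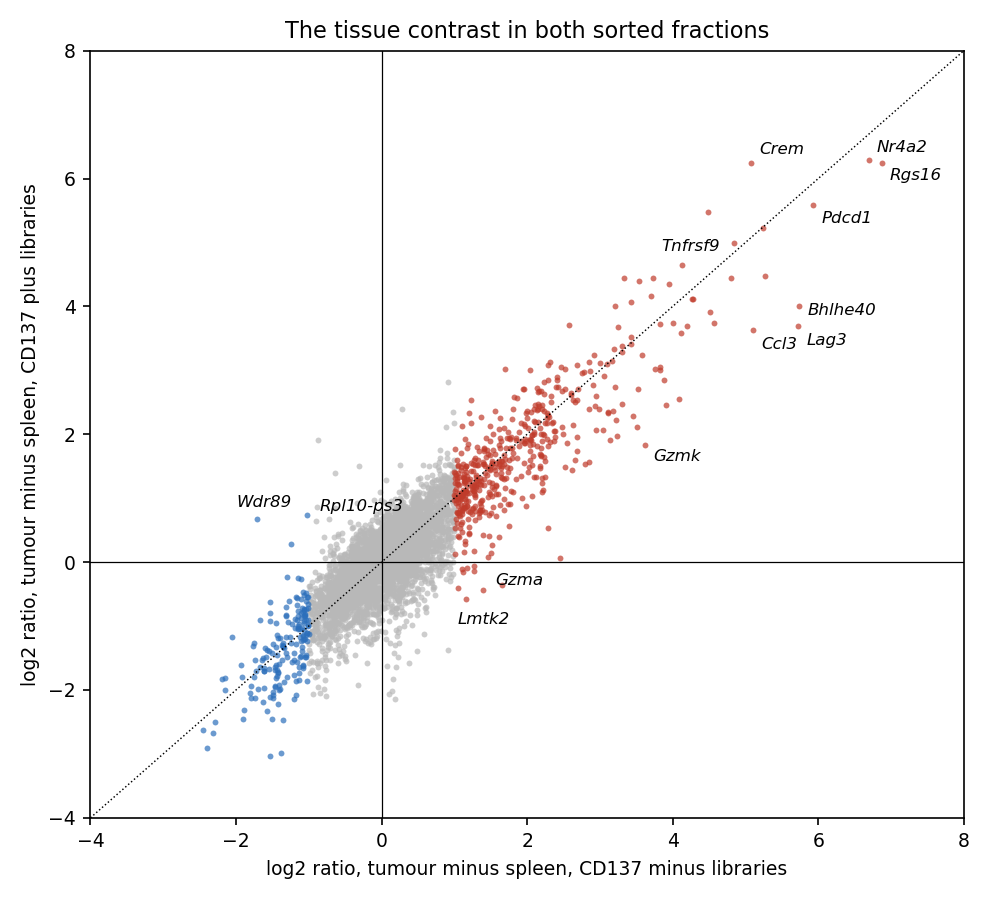
Log2 ratio of tumour to spleen in the CD137 minus libraries (x axis) and the CD137 plus libraries (y axis) for genes measured in the minus pair with a value in both plus libraries, 1 point per gene; red and blue points are called higher and lower in the minus pair and the dotted line marks equal ratios. Most called genes lie on the same side of 0 in both, with 9 higher and 3 lower genes on the other side.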

How the data were processed

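Single T cells were captured with a 5' 10x Genomics kit, version 1.1, and sequenced on a NextSeq 550, per the labels' protocols. The submitters' processing notes name Cell Ranger 3.0.2, Seurat 3.0 and the mm10 build. The authors deposited 1 table of 6965 cells and 12763 genes, whose values are natural log values: expm1 of each gave whole numbers within a relative tolerance of 1e-11, taken here as corrected counts that the authors had adjusted for depth. The correction makes cell totals similar within a library, so the depth as sequenced is unknown here. No doublet caller was run on these corrected values.

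Corrected counts were summed over the chosen cells of each library and scaled to 1000000 (CPM). With 1 library per group no test was run, and differences were called by size. Named genes were the 15 highest and 15 lowest measured genes, the 10 genes listed at 0 in spleen with the highest tumour level, and members of 27 gene lists. Sex-linked, haemoglobin, immunoglobulin, ribosomal protein and mitochondrial genes, receptor segments and unnamed models were left out of the first 3 of these. Of the 15 lowest genes 14 are named, since some genes are not reported here, and the lists and marker rules were run without those genes, a change made after the data were seen. The members and lists were chosen with earlier results of these data known. Coordinates come from GENCODE vM21, matched by symbol for 12639 of 12763 genes, and promoters from RefSeq. The calculation of ratios and calls was tested on simulated data. The tools were pandas 2.3.3, numpy 2.4.6, scipy 1.17.1 and matplotlib 3.10.9 under Python 3.11.15. Pseudocounts, level filters, centring, cell choices and thinning were varied.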

Additional observations from a re-analysis of the deposited data

Results flagged for a closer look

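3 genes that passed the size rule in the CD137 minus pair lay more than 0.5 beyond 0 on the other side in the CD137 plus pair. Lmtk2, a kinase gene, had a log2 ratio of tumour to spleen of 1.16 in CD137 minus cells (8.42 and 20.1 CPM in spleen and tumour) and -0.57 in CD137 plus cells (16.0 and 10.4 CPM). Rpl10-ps3, a pseudogene whose reads may be shared with its parent gene, had -1.03 (21.5 and 10.0 CPM) and 0.73 (9.41 and 16.3 CPM). Wdr89, a gene of a WD repeat protein, had -1.71 (30.2 and 8.52 CPM) and 0.67 (12.7 and 20.8 CPM). These differences between the fractions were not tested, since each value rests on 1 library.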

How the results depend on the processing

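No paired analysis was possible because each group is 1 library. The count of genes higher in tumour was 1052 without a filter and 274 with a filter of 50 CPM and 10% of cells, against 497, and the count of lower genes 405 and 87, against 173. A pseudocount of 10 CPM gave 84 lower genes. The stricter rule for naive markers (120 spleen and 13 tumour cells) gave 556 lower genes, effector-marker cells 277 and lymphoid-marker cells 264, with 228 higher in the last. Genes listed at 0 in spleen numbered 5 under the stricter filter, 26 under the stricter naive rule (where 569 were listed at 0 in its 13 tumour cells), 28 in effector-marker cells and 4 in lymphoid-marker cells, against 17. Under the stricter naive rule Gpr146 had a ratio of 0.092, and 12 of 26 list medians changed sign: cytotoxic -0.22, cytokines -0.65, glycolysis -0.54, cell cycle -0.36, oxidative phosphorylation -0.30, costimulatory receptors -0.28, hypoxia and metallothionein -0.28, cytoskeleton and lectins -0.27, cytokine receptors -0.18, circulating and memory effector -0.06, naive and homing 0.036 and ribosomal 0.063. In lymphoid-marker cells 7 of 26 did: cholesterol synthesis -0.39, inhibitory receptors -0.28, costimulatory receptors -0.17, oxidative phosphorylation -0.14, housekeeping -0.12, cell cycle -0.06 and ribosomal 0.02. The level filter was applied within each kind of cell, so a list median there can cover other members than the one over all cells. The T cell receptor list (-0.09) was at 0.0078 with cells scaled to their own total, 0.034 in cells with both CD8 chains and 0.037 after thinning. Without changing sign, list medians moved by over 1.5 times for 6 of 27 lists without a filter, 5 of 26 with the stricter filter, 3 with a pseudocount of 10 CPM, 3 after thinning, 3 in cells with both CD8 chains, 3 without stress-gene cells, 2 after centring, 1 without cells with markers of other types, 7 in effector-marker cells, 15 of 26 in lymphoid-marker cells and 8 of 26 under the stricter naive rule. Thinning moved the lymphoid-marker shares to 49.4% and 21.3%, the tumour share of the stricter naive rule from 1.04% to 1.84%, the spleen effector-marker share to 28.8% and the tumour checkpoint share to 32.1%. Art2b, Dgka and Nrros were under the limit under the stricter naive rule. The 29 leading genes kept their call wherever they were measured in the other settings, which varied pseudocount, scaling, centring and the cells left out. A level filter does not change the ratio of a gene, so the filter settings are no check on these calls. Under the filter of 50 CPM and 10% of cells some of these genes are no longer measured, among them Art2b (42.8 CPM in spleen) and F2rl1 (24.3 CPM). The marker rules as run, the thinning of levels and the settings without shared barcodes or stress-gene cells were chosen after seeing the data. The main limits are 1 library per tissue, pooled mice that cannot be separated, corrected counts, and genes listed at 0.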
